A study of Mus musculus with 6 samples.

Results

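The genes described here encode the machinery that displays peptides on MHC class I molecules: B2m, H2-K1, H2-D1, H2-T23, Tap1, Tap2, Tapbp, Psmb8, Psmb9 and Nlrc5. These 10 genes were picked by symbol from a table of 18448 genes, with their behaviour between the groups already known, so their differences between groups are given as a description. All 10 were found in the table, and 9 passed the filter on low counts. Nlrc5 did not.

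RNA came from epithelial organoids grown from the jejunum of C57BL/6 mice that carry Hnf4aflox/flox alleles together with Villin-CreERT2. One group received the vehicle DMSO and the other 0.5 µM 4-hydroxytamoxifen (4OHT) for 24 hours, which activates the Cre recombinase and deletes Hnf4a, a nuclear receptor gene of the intestinal epithelium. Every organoid of both groups also received 200 ng/mL recombinant Wnt3A, and RNA was taken on day 2 after passage, with 3 libraries per group. The Villin promoter restricts Cre to epithelial cells. All 6 libraries carry both the Cre and the floxed alleles, so effects of 4OHT or of active Cre cannot be told apart from loss of Hnf4a. The labels do not say whether the replicates came from separate animals, so p-values measure only the spread between these libraries.

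MHC class I molecules carry fragments of a cell's own proteins to its surface, where CD8 T cells inspect them. A heavy chain (H2-K1 and H2-D1 are the classical ones in this strain) folds with the light chain beta-2-microglobulin, the product of B2m. Peptides are cut by the proteasome, in which Psmb8, Psmb9 and Psmb10 can replace constitutive subunits, and are pumped into the endoplasmic reticulum by the TAP transporter (Tap1 and Tap2), where tapasin (Tapbp) helps load them. Interferon-gamma raises the whole set, in part through the transactivator Nlrc5. In the gut the same light chain also serves class I-like proteins such as the neonatal Fc receptor and TL.

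The upstream DNA of the light chain and of the heavy chains is shown because class I genes are known to share control elements, while B2m and the heavy chains differed in how their levels compared between groups. Sequences are from RefSeq on GRCm38.p6, whose table held 8 of the 10 genes, and positions count backwards from the transcription start. Capitals mark matches to an interferon-stimulated response element (the full form, 2 copies of GAAA spaced by 2 bases, or the shorter GAANNGAAA), a kappaB-type site (GGG and CC spaced by 5 bases), the core of the X2 box (TGACG) and the Y box (ATTGG), on either strand. Neighbouring kappaB matches can overlap. The B2m stretch (chr2:122147517-122147685, plus strand) and the H2-K1 stretch (chr17:34000348-34000497, minus strand) were:
B2m: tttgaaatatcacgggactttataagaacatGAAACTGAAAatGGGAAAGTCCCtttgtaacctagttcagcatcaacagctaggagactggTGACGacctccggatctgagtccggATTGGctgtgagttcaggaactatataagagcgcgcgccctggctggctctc
H2-K1: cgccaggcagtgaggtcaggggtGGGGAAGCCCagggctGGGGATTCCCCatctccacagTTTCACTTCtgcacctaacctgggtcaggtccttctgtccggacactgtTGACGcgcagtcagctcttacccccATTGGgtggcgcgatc

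The kappaB and interferon elements stood side by side in all 3 genes, in opposite order in B2m and in the heavy chains. The H2-K1 and H2-D1 elements matched at 29 of 30 bases. They lie at chr17:34000429-34000458 (minus strand) for H2-K1 and chr17:35262923-35262952 (plus strand) for H2-D1, and at chr2:122147548-122147570 (plus strand) for B2m:
H2-K1: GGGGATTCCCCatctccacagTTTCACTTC
H2-D1: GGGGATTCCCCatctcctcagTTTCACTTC
B2m: GAAACTGAAAatGGGAAAGTCCC

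Closer to the start, TGACG and ATTGG were separated by the same 20 bases in B2m, H2-K1 and H2-D1. This spacing occurred in 30 of 32817 mouse promoter windows of 250 bases (0.0914%), and was looked for after the sequences had been seen. The stretches lie at chr2:122147609-122147638 for B2m (plus strand), chr17:34000359-34000388 for H2-K1 (minus strand) and chr17:35262993-35263022 for H2-D1 (plus strand):
B2m: TGACGacctccggatctgagtccggATTGG
H2-K1: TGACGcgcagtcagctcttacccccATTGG
H2-D1: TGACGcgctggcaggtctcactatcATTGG

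H2-K1 and H2-D1 shared 23 of these 30 bases, and B2m shared 13 with H2-K1 and 12 with H2-D1. Both printed H2-D1 stretches lie upstream of its RefSeq start. In the GENCODE M21 annotation H2-D1 starts earlier, at 35262730, and its exons overlap both stretches. Among all promoter windows, the full interferon element was present in 2.97%, GAANNGAAA in 6.31%, the kappaB-type site in 45.8%, TGACG in 17.7% and ATTGG in 33.8%. H2-T23 had TTTCTCTTTC (the full interferon element on the other strand) and a Y box. The RefSeq starts of Tap1 and Psmb9 lie on opposite strands with 225 bases between them, which held TGACG and ATTGG. An HNF4-type motif, CAAAGTCCA, which 0.384% of windows held, matched none of the 8 genes' windows. A match is a string of letters only.

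Of the 10 genes, 8 lie within 2.12 Mb of chromosome 17, in the mouse major histocompatibility complex, from Tapbp to H2-T23. B2m (ENSMUSG00000060802) lies on chromosome 2 from 122147686 to 122153083, and Nlrc5 on chromosome 8. B2m sits inside the span of Patl2, a gene on the opposite strand that had no row in the table under this symbol. In GENCODE M21 Tap1 and Psmb9 overlap by 212 bases on opposite strands. Tapbp overlaps Zbtb22 by 3422 bases on the same strand, which a strand setting would not separate. The library kit was directional, but whether the counting used strand was not given in the sources used here, so reads of such pairs may not be separable. The class I heavy chains are a family of related genes that share stretches of sequence. Of the transcript stretches of 50 bases in H2-K1, H2-D1 and H2-T23, 9.63%, 12.8% and 13.6% also occurred in another gene, against 0% for B2m. For stretches of 100 bases these shares were smaller, at 0.957%, 3.59% and 3.15%, against 0% for B2m. The split of reads among the heavy chains is therefore less certain than the B2m count.

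Library totals ran from 31537100 to 40276242 counts, which puts 3 counts at 0.0755 to 0.0975 CPM (counts scaled to library size). The DMSO library of replicate 3 stood apart from DMSO replicates 1 and 2 across tested genes with at least 10 counts in the pair. Chi-square per degree of freedom was 69.6 and 63.8, against 8.53 between replicates 1 and 2. Those 2 libraries lay nearer to each 4OHT library (23.1 to 45.8) than to DMSO replicate 3. DMSO replicate 3 lay at 78.2 to 107 from the 4OHT libraries. Hnf4a measured 840 to 1021 CPM in DMSO and 424 to 482 CPM after 4OHT. Epithelial markers such as Epcam, Vil1 and Krt8 summed to 15100 to 19200 CPM in DMSO and 16900 to 20700 CPM after 4OHT over 11 of 11 genes. Keratins gave much of this sum: Krt8 alone 4957 to 7079 CPM in DMSO and 6056 to 7665 CPM after 4OHT. Krt19 gave 3414 to 4595 and 4674 to 5782 CPM. The sum therefore says little about the less abundant markers, such as Vil1 (log2 fold change -0.16). With the replicate block 2 of these 11 markers were called, both lower, 18.2% beside 6.99% of all tested genes (3.99% higher and 3% lower). Epcam (log2 fold change -0.27, edgeR adjusted p = 0.144, or 0.0446 blocked) and Fabp2 (-0.35, 0.641, or 0.0238 blocked) fell. Of the other markers Krt19 was higher in each 4OHT library than in any DMSO library (0.43, blocked adjusted p = 0.0831), and 5 of the 11 had a log2 fold change above 0. The markers' part in the results on class I genes was not tested. Leukocyte markers, which matter here because immune cells express class I genes strongly, summed to only 5.64 to 6.43 CPM and 5.90 to 7.22 CPM. Of those 20 markers, 12 had no row in the table, which lists genes with at least 10 counts in all, among them Cd3e, Itgax and Adgre1. Of the 5 tested, edgeR called 0 in either fit, and 3 had a log2 fold change below 0. The groups did not overlap for 2 of the 5, in opposite directions, beside 22.6% of all tested genes. Cd68 was higher after 4OHT (2.70 ± 0.344 and 4.18 ± 0.582 CPM, log2 fold change 0.63). Trac, with 6 to 18 counts per library, was lower (-1.39). Stromal markers summed to 5.53 to 9.78 CPM in DMSO and 6.24 to 8.89 CPM after 4OHT, with 6 of 11 having no row.

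Among the 10 genes, the light chain and classical heavy chains had the highest levels in the organoids, and Psmb9, Psmb8 and Nlrc5 the lowest. Levels between genes were compared as CPM per kilobase of annotated exon (GENCODE M21), means ± SD of 3 libraries. In DMSO the order was B2m (182 ± 29), H2-K1 (135 ± 5.7), H2-D1 (80.5 ± 2.8), Tapbp (20.3 ± 1.3), H2-T23 (17.7 ± 2.1), Tap1 (1.54 ± 0.125), Tap2 (1.27 ± 0.11), Psmb9 (0.524 ± 0.22), Psmb8 (0.153 ± 0.031) and Nlrc5 (0.00817 ± 0.0044). Tapbp and H2-T23 overlapped between DMSO libraries, while the other neighbours in this order did not. After 4OHT H2-K1 (132 ± 3.7) stood above B2m (119 ± 9.2), and the rest of the order was the same. The plot of levels by library shows both the wide range between genes and the small distance between the groups for most of them.

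**Figure D1:**
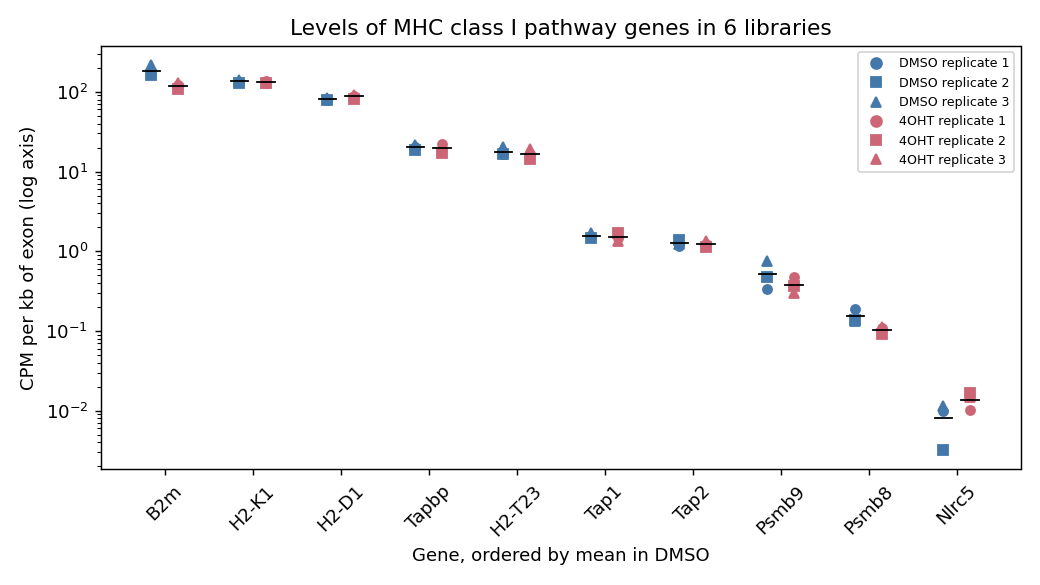
CPM per kilobase of exon (log axis) of the 10 genes in each of 6 libraries, ordered by the DMSO mean; blue is DMSO, red is 4OHT, symbols give the replicate and bars the group mean. B2m is the highest gene in DMSO at 182 and at 119 lies below H2-K1 (132) after 4OHT, while Nlrc5 lies near 0.01.

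B2m, the light chain that every class I molecule needs, was lower in each 4OHT library than in any DMSO library. Under DMSO it stood at 145.1, 139.6 and 185.5 CPM (replicates 1 to 3), and under 4OHT at 103.5, 93.84 and 109.5. The groups did not overlap, and DMSO replicate 3 was the highest library. Group means were 157 ± 25 and 102 ± 7.9 CPM (SD, n = 3), so that DMSO exceeded 4OHT 1.53-fold, with an edgeR log2 fold change of -0.62 and an SE of 0.12. Between libraries with the same number the log2 ratio was -0.49, -0.57 and -0.76. Without DMSO replicate 3 the log2 fold change was -0.48, and it ran from -0.69 to -0.48 over the 13 alternatives. Counted from the lowest log2 fold change, B2m ranked 499 of all 14544 tested genes, and 143 of the 9374 averaging 10 CPM or more.

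The classical heavy chain gene H2-K1 held a nearly constant level. It stood at 394.3, 381.5 and 414.9 CPM under DMSO and at 399.7, 380.3 and 381.5 under 4OHT. The groups overlapped, with a log2 fold change of -0.04 (SE 0.06). H2-D1, the other classical heavy chain, stood at 205.8, 201.4 and 215.5 CPM under DMSO and at 231.3, 212.4 and 237.7 under 4OHT. It was higher after 4OHT in all 3 same-numbered pairs, though the groups overlapped, with a log2 fold change of 0.13 (SE 0.06). H2-T23 encodes Qa-1, a non-classical heavy chain that presents peptides from classical class I leader sequences to NK receptors. It stood at 47.83, 47.63 and 58.09 CPM under DMSO and at 47.64, 41.64 and 56.07 under 4OHT, highest in replicate 3 of both groups (1.22 and 1.26 times the mean of replicates 1 and 2). Its log2 fold change was -0.08 (SE 0.13).

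The ratio of light chain to heavy chain transcripts was lower in each 4OHT library than in any DMSO library. B2m over the sum of H2-K1, H2-D1 and H2-T23, per kilobase, was 0.732, 0.723 and 0.881 in DMSO and 0.497, 0.482 and 0.527 after 4OHT. The groups did not overlap, with means of 0.779 ± 0.0887 and 0.502 ± 0.0229 (SD, n = 3). Against H2-K1 alone the ratio went from 1.34 ± 0.158 to 0.903 ± 0.0702, above 1 in each DMSO library and below 1 in each 4OHT library. The point at which the ratio crosses 1 depends on the exon lengths used. Against H2-D1 it went from 2.26 ± 0.281 to 1.35 ± 0.029. H2-D1 over H2-K1 was 0.592 to 0.601 in DMSO and 0.636 to 0.71 after 4OHT, also without overlap. A ratio shows unequal change and not which of the 2 genes moved. These ratios rest on the values by which the genes were chosen and were not tested.

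**Figure D2:**
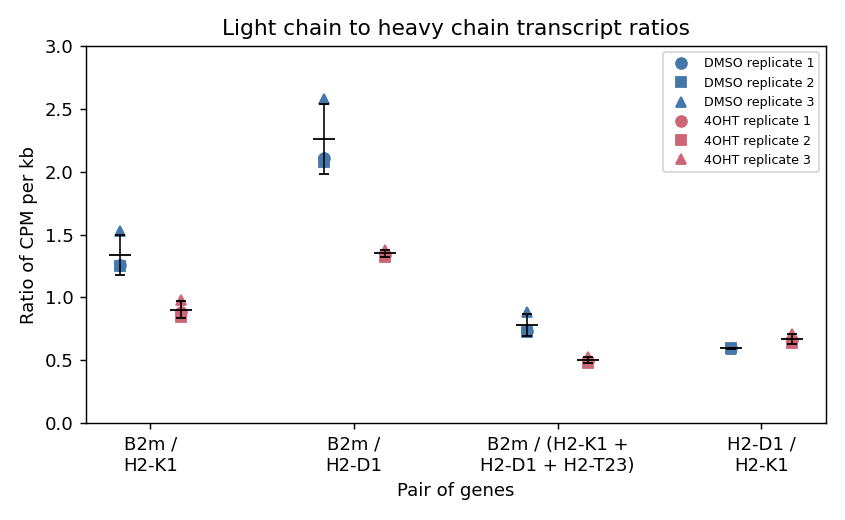
Ratios of CPM per kilobase between light chain and heavy chain transcripts; points are libraries (blue DMSO, red 4OHT, symbols the replicate), and the horizontal mark with error bar is the mean ± SD of 3. B2m over the 3 heavy chains lies between 0.723 and 0.881 in DMSO and between 0.482 and 0.527 after 4OHT.

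The peptide transporter and its loading partner differed little between the groups. Tap1 stood at 8.227, 7.92 and 9.227 CPM under DMSO and at 7.96, 9.188 and 7.351 under 4OHT. Tap2, its partner chain, stood at 4.419, 5.253 and 4.678 CPM under DMSO and at 4.638, 4.243 and 5.06 under 4OHT. The groups overlapped for both genes, whose log2 fold changes were -0.05 (SE 0.12) and -0.04 (SE 0.13). Tapbp stood at 74.23, 68.45 and 78.04 CPM under DMSO and at 80.37, 62.06 and 74.85 under 4OHT (log2 fold change -0.02, SE 0.10). The lowest and the highest Tapbp level were both in 4OHT libraries.

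The inducible proteasome subunits Psmb8 and Psmb9 had few counts. Psmb8 had 23, 17 and 14 counts in DMSO and 13, 11 and 15 counts after 4OHT. In CPM this was 0.519 ± 0.104 and 0.353 ± 0.0381 (SD, n = 3), without overlap between the groups in CPM and with a log2 fold change of -0.55 (SE 0.26). Psmb9 had 44, 64 and 86 counts in DMSO and 61, 48 and 43 counts after 4OHT. Its groups overlapped, and the same-numbered log2 ratios were 0.51, -0.37 and -1.37. The log2 fold change of Psmb9 was -0.46 (SE 0.34), and it was 0.05 when both libraries numbered 3 were left out. Nlrc5 had 3, 1 and 3 counts in DMSO and 3, 5 and 5 counts after 4OHT, too few for a fold change.

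The constitutive subunits that Psmb8 and Psmb9 replace were far more abundant. Per kilobase, Psmb5 exceeded Psmb8 795 ± 130 times in DMSO and 1151 ± 119 times after 4OHT. Psmb6 exceeded Psmb9 148 ± 55.5 and 190 ± 52.2 times, with overlap between the groups. Psmb10, the remaining inducible subunit, was different: its counterpart Psmb7 exceeded it only 1.68 ± 0.195 and 2 ± 0.24 times. The size of these ratios depends on the exon lengths used. Those were 3381, 3660 and 1705 bases for Psmb8, Psmb9 and Psmb10, and 899, 1872 and 3421 for Psmb5, Psmb6 and Psmb7. Before division by length, DMSO means were 107.3 CPM for Psmb5 against 0.519 for Psmb8. They were 130.2 for Psmb6 against 1.92 for Psmb9, and 148.9 for Psmb7 against 44.6 for Psmb10. Psmb10 measured 44.6 ± 4.85 CPM in DMSO and 37.7 ± 4.29 CPM after 4OHT (edgeR adjusted p = 0.372).

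The groups did not overlap for 2 of the 9 filtered genes, B2m and Psmb8, both lower, beside 22.6% of all 14544 tested genes (12.5% higher and 10.1% lower). edgeR's quasi-likelihood test called 0 of the 9 at an adjusted p under 0.05, beside 0.908% of all tested genes (0.701% higher and 0.206% lower), and 1, B2m, was lower before adjustment (p under 0.05). With the replicate number as a block it called B2m, beside 6.99% of all tested genes (3.99% higher and 3% lower), and DESeq2 also called B2m. The median log2 fold change of the 9 was -0.05, beside -0.004 for all tested genes. Nothing is read from these counts, because this contrast was known when the genes were chosen. The plot of differences shows all 3 pairs below 0 for B2m, Psmb8 and, by a smaller margin, H2-T23 (-0.006, -0.19 and -0.05), and pairs on both sides of 0 for H2-K1, Tap1, Tap2, Tapbp and Psmb9.

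**Figure D3:**
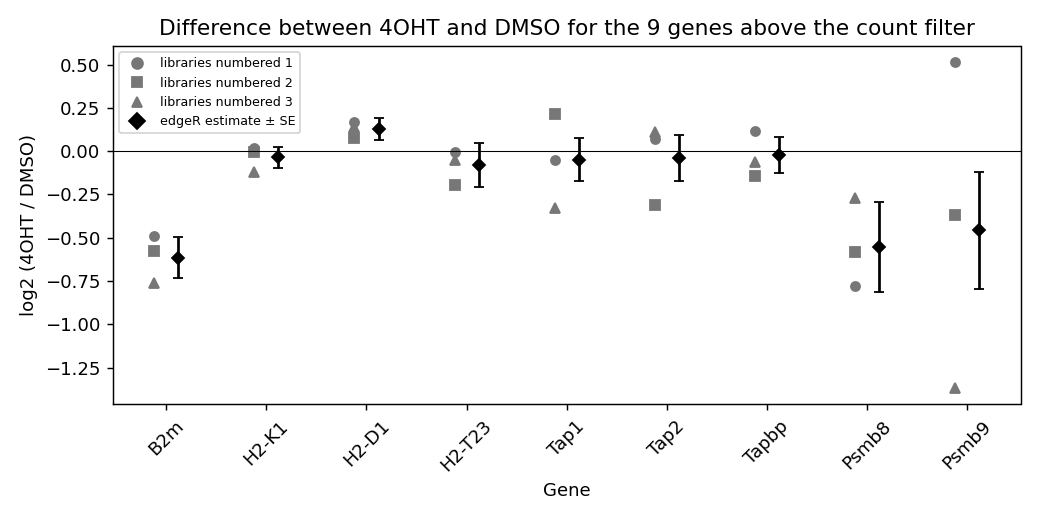
log2 ratio of 4OHT to DMSO for the 9 genes above the count filter; grey symbols are the 3 same-numbered pairs of libraries, black diamonds the edgeR estimate ± SE. The B2m pairs lie at -0.49, -0.57 and -0.76, and the Psmb9 pairs range from -1.37 to 0.51.

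The rest of the class I pathway was examined through lists of genes other than the 10 above: peptide trimming and loading factors, constitutive proteasome subunits, other class I and class I-like heavy chains, and class I transcription factors. Of 56 tested genes 0 were called by edgeR without the block, 1 was higher and 6 were lower before adjustment (p under 0.05), and DESeq2 called 2 lower. Over all genes, 1258 of 14544 were higher and 923 lower before adjustment, and DESeq2 called 735 of 14871 (474 higher and 261 lower). With the replicate block 0 rose and 5 fell (8.93%, beside 6.99% of all tested genes, 3.99% higher and 3% lower). The median log2 fold change was -0.03, beside -0.004 for all tested genes.

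Among the trimming and loading factors Erap1 and Psme2 fell with the block. Erap1, the aminopeptidase that trims peptides inside the endoplasmic reticulum, stood at 79.46, 82.98 and 89.73 CPM under DMSO and at 69.2, 64.93 and 67.04 under 4OHT. Its groups did not overlap (log2 fold change -0.33 with SE 0.06; edgeR adjusted p = 0.0717, or 0.0319 blocked). Psme2, a subunit of the interferon-inducible proteasome activator PA28, measured 97.3 ± 9.06 and 80 ± 5.88 CPM (-0.28, edgeR adjusted p = 0.194, or 0.0234 blocked). Its partner subunit Psme1 was at 100 ± 9.68 and 88.1 ± 4.89 CPM (adjusted p = 0.362). The 16 genes of this list had a median of -0.003. All 11 constitutive proteasome genes missed the threshold with and without the block (0 before adjustment (p under 0.05) in either edgeR fit), with a median of -0.009.

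Other heavy chains, which mostly pair with the same light chain, held the remaining 3 of the 5 falls. Of 24 listed genes 16 were tested, with a median log2 fold change of -0.29. The tested genes include H2-Ke6 (0.07), which is not a class I chain and also counts among the 56. H2-Q10, which encodes a class I protein known to be secreted by liver, stood at 7.754, 9.363 and 10.95 CPM under DMSO and at 5.039, 5.085 and 3.55 under 4OHT. The groups did not overlap, and DMSO exceeded 4OHT 2.05-fold (log2 fold change -1.04 with SE 0.19; edgeR adjusted p = 0.0654, or 0.0417 blocked). Fcgrt, the heavy chain of the neonatal Fc receptor that carries antibodies across epithelium, measured 24.9 ± 4.58 and 16.99 ± 3.36 CPM (-0.55, adjusted p = 0.23, or 0.0143 blocked).

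H2-Q2, a class I chain of the Q region, stood at 76.26, 58.71 and 133.5 CPM under DMSO and at 53.54, 42.9 and 70.22 under 4OHT. Replicate 3 was the highest library in both groups, and the groups overlapped (log2 fold change -0.69, adjusted p = 0.371, or 0.0246 blocked). Without DMSO replicate 3 its log2 fold change was -0.29. H2-Q4 (-0.34, adjusted p = 0.242) and Azgp1 (0.93, adjusted p = 0.142), a soluble class I-like protein, missed the threshold in both fits. H2-Q genes share sequence with H2-K1 and H2-D1, so their counts are uncertain in the same way. Fewer cells that express a gene and less RNA per cell cannot be told apart in these bulk samples.

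The factors that act on class I promoters showed no called gene. Of 13 tested, edgeR called 0 without the block and 0 with it, and before adjustment (p under 0.05) there were 0 without the block and 3 lower with it, beside 1751 lower of all 14544 tested genes in the blocked fit. Irf1, which binds interferon response elements, measured 56.7 ± 3.96 CPM under DMSO and 55.0 ± 6.03 under 4OHT (edgeR adjusted p = 0.876).

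Interferon genes outside the class I pathway moved in both directions. Of 45 tested receptors, signalling genes and targets, edgeR called 0 without the block, 5 were higher and 3 lower before adjustment (p under 0.05), and DESeq2 called 1 higher. With the block 2 rose and 2 fell (8.89%, beside 6.99% of all tested genes). Oas1a, an antiviral oligoadenylate synthetase, stood at 6.448, 6.804 and 7.472 CPM under DMSO and at 10.74, 9.693 and 10.8 under 4OHT. The groups did not overlap (log2 fold change 0.59 with SE 0.11; edgeR adjusted p = 0.0632, or 0.0287 blocked). Samd9l, another interferon-induced gene, also rose with the block (0.29, adjusted p = 0.256, or 0.0403 blocked).

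Dhx58, a helicase of the RNA-sensing pathway, fell with the block from 2.397 ± 0.487 to 1.42 ± 0.274 CPM (-0.76, adjusted p = 0.177, or 0.0477 blocked). Ifitm3, a membrane protein that restricts virus entry, did so as well (-0.32, adjusted p = 0.457, or 0.0358 blocked). The 39 listed interferon targets with a row summed to 779 to 831 CPM in DMSO and 783 to 799 CPM after 4OHT. Lgals3bp alone gave 301 to 338 CPM of this sum and Trim25 118 to 145 CPM, and the 30 tested targets had a median log2 fold change of -0.175, with 20 of 30 below 0. Gbp4, Gbp5, Iigp1 and Cxcl9, which interferon-gamma strongly induces, had no row in the table. Socs1, the feedback inhibitor of the pathway, was at 1.75 ± 0.511 and 2.74 ± 0.408 CPM (adjusted p = 0.283).

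Most of the MHC class II pathway was at or below the detection limit. Of 12 genes 6 had no row, among them the transactivator Ciita and the chains H2-Aa and H2-Ab1. Of 4 tested, edgeR called 0 without the block, 1 was lower before adjustment (p under 0.05), and DESeq2 called 1 lower. With the block 1 fell, beside 3% of all tested genes: Ctss, the lysosomal protease cathepsin S, from 17.6 ± 3.5 to 11.4 ± 2.47 CPM (-0.62, adjusted p = 0.203, or 0.0241 blocked). Ifi30 was abundant, at 175.7 ± 34.1 CPM in DMSO and 156.4 ± 6.37 after 4OHT (-0.17, edgeR adjusted p = 0.602). H2-DMa was at 1.07 ± 0.596 and 0.56 ± 0.0967 CPM without overlap (-0.91, edgeR adjusted p = 0.362). H2-Eb1, at 0.36 CPM in both groups, had a log2 fold change of -0.04.

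**Figure D4:**
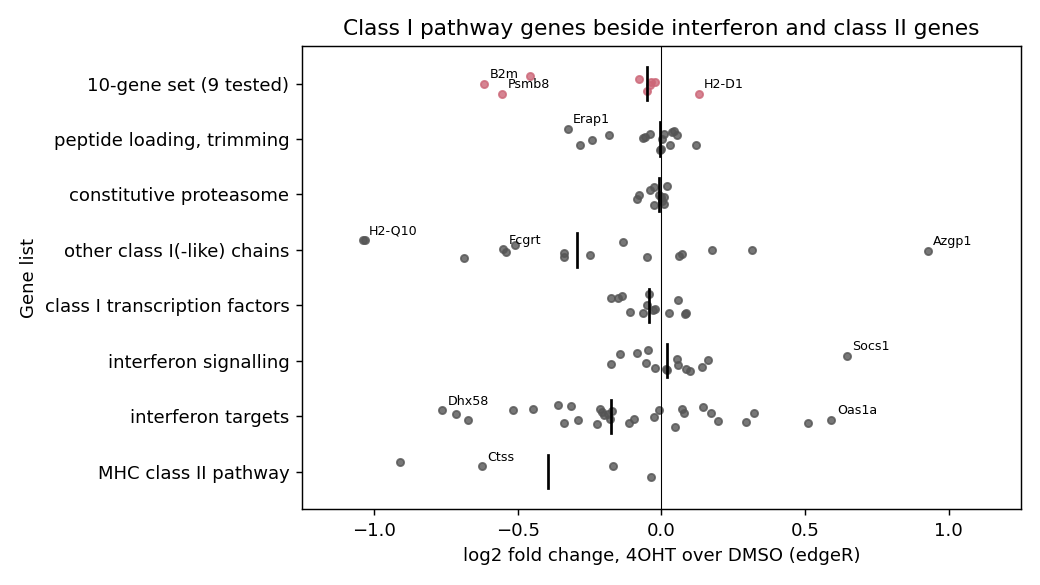
edgeR log2 fold change (4OHT over DMSO) of each tested gene, one dot per gene, by gene list; black bars are list medians and red dots are the 9 filtered genes of the 10. B2m (-0.62) lies away from most of the class I pathway, H2-Q10 (-1.04) is among the lowest, and Oas1a (0.59) lies on the other side.

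The genes with the profile most like the mean of the 10, by root-mean-square difference of centred log2 CPM over 6 libraries among 9369 candidates, were Yif1a (0.0167), Slc25a51 (0.0189) and Asb7 (0.0227). That mean profile ranged from -0.11 to 0.22 and includes Nlrc5 with its 1 to 5 counts. The mean of the 9 filtered genes was 0.03, 0.02 and 0.23 in DMSO and -0.02, -0.18 and -0.07 after 4OHT, without overlap between the groups. Its nearest genes were Yes1 (0.0247), Sdha (0.0287) and Zkscan1 (0.0306). The lowest log2 fold changes among the 9 were those of B2m (-0.62) and of Psmb8 and Psmb9 (-0.55 and -0.46), which had few counts. The others ran from -0.08 to 0.13. Nothing is read from this separation, because this contrast was known when the genes were chosen. Against B2m alone, a search added after its values were seen, the nearest genes were Tspan3 (0.0447), Fbln1 (0.0617), Baiap2l2 (0.0674) and Unc5cl (0.0691), with log2 fold changes of -0.60, -0.57, -0.50 and -0.66. For H2-K1 the nearest was Josd1 (0.00848), with a log2 fold change of -0.04.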

How the data were processed

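Poly(A)-selected RNA (directional kit, per the labels' protocols) was sequenced from 3 DMSO and 3 4OHT organoid libraries. STAR 2.4.0f1, bcl2fastq 1.8.4 and GRCm38 are named in the submitters' processing notes; the counting program and its strand setting are not given in the sources used here. The authors deposited raw counts per gene and library, a normalised score (counts scaled per library and rounded), log2 fold changes and mean log2 CPM, and p-values, per the file headers. Only the deposited raw counts were analysed. Every gene in the table has at least 10 counts in total.

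Counts were fitted in R 4.3.3 with edgeR 4.0.16 (filterByExpr, 14544 genes kept; TMM; quasi-likelihood F test; Benjamini-Hochberg over all tested genes; called at adjusted p under 0.05). CPM uses TMM-scaled library sizes, and SE is the log2 fold change divided by the square root of F. Same-numbered libraries deviated together (correlations of deviations 0.291, 0.309 and 0.411), a pairing seen in these data and not stated in the labels, so the blocked fit, which adds that number as a term, is given where it changes a call. Alternatives were DESeq2 1.42.0, other scalings and filters, and omitted libraries. The fit was tested on simulated data.

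The 10 genes and the lists were chosen with earlier results of these data known. Besides the 10 genes and Hnf4a, up to 4 genes with the smallest p were named per list, and up to 10 genes with the most similar profile; Psmb5, Psmb6, Psmb7, Irf1, Samd9l, Ifitm3, H2-Q2 and the genes similar to B2m or H2-K1, like the spacing of TGACG to ATTGG and the printed stretches, were chosen after their values were seen. Some list genes are not reported here.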

Additional observations from a re-analysis of the deposited data

How the results depend on the processing

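The number of genes called over the whole table was 132 and moved widely: 56 with at least 10 CPM in 3 libraries, 735 with DESeq2, 1017 with the replicate block, 601 without both libraries numbered 3, and 4 to 340 when 1 library was left out (340 without DMSO replicate 3). For the class I pathway outside the 10 genes the count was 0, against 2 with DESeq2 (Erap1 and H2-Q10), 5 with the replicate block and 1 without both libraries numbered 3 (H2-Q10). For interferon genes it was 0, against 1 with DESeq2, 4 with the replicate block, 1 without both libraries numbered 3 and 0 to 1 when 1 library was left out; outside the block the gene was Oas1a each time. For MHC class II genes it was 0, against 1 with DESeq2, with the replicate block and without both libraries numbered 3 (Ctss each time). Beyond B2m and the genes named here and in the results as called with the block, the block changed the call of no other named list gene. The cause of these moves was not tested. The log2 fold change of B2m was below 0 in 13 of 13 alternatives (-0.69 to -0.48), that of Psmb8 in 12 of 12 (-0.69 to -0.37), and that of H2-D1 above 0 in 13 of 13 (0.10 to 0.18). B2m passed the threshold in 4 of the 13: with DESeq2, with the replicate block, without DMSO replicate 3 and without both libraries numbered 3. The log2 fold changes of H2-K1, H2-T23, Tap1, Tap2, Tapbp and Psmb9 took both signs. The alternatives refit the same libraries or part of them. This contrast was known when the 10 genes were chosen, so nothing is read from these counts for them. Psmb8, Psmb9 and Nlrc5 are limited by counts of 1 to 86 per library.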
